A study of Mus musculus with 12 samples.

Results

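The response to 2i alone was measured by comparing the 3 libraries of pre-iPSCs treated with 2i (2i A, 2i B and 2i C) with the 3 libraries treated with DMSO, the solvent control (DMSO A, DMSO B and DMSO C). These 6 of the 12 RNA-sequencing libraries of the study were chosen by their labels alone, and the change was described over all genes. Pre-iPSCs are cells stalled late in reprogramming from somatic cells, which look like embryonic stem cells but keep the Nanog-GFP reporter silent. All groups were grown without feeder cells in the serum medium used for mouse embryonic stem cells. The 2i cells received 1 μM of a MEK inhibitor (PD0325901) and 3 μM of a GSK inhibitor (CHIR99021) for 48 h, and the DMSO cells neither. The AA libraries (ascorbic acid at 50 μg per ml) and the AA+2i libraries, 3 each, entered the same fit, so that the 4 conditions shared 1 estimate of the spread. The methods describe pre-iPSC lines picked as colonies after Nanog-GFP reporter embryonic fibroblasts were infected with retroviruses for Oct4, Sox2, c-Myc and Klf4. Another passage says that the fibroblasts and astrocytes used for such lines carried the factors in a cassette. Lines from astrocytes lacked the reporter, and the paper chose this time for sequencing because Nanog-GFP colonies were absent. The labels do not name the cell of origin of the line sequenced. Reads of the introduced and the endogenous copies of Pou5f1, Sox2, Myc and Klf4 cannot be told apart in gene counts.

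MEK phosphorylates the kinase ERK, which drives a rapid programme of immediate early factors and a slower programme of ETS factors and of phosphatases and Sprouty proteins that feed back on the cascade. GSK3 marks β-catenin for destruction, and its inhibition lets β-catenin act with TCF/LEF factors on Wnt targets, many of which feed back on Wnt signalling. Mouse embryonic stem cells are kept in a naive state by blocking both kinases, with differentiation cues from FGF and ERK reduced and repression by Tcf7l1 relieved. In this series 6 libraries received both inhibitors and 0 received only 1 of them. Which inhibitor a change belongs to therefore cannot be told apart, and the programmes are grouped below by what is known of each pathway.

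The sum of expected counts ran from 16173322 in DMSO C to 49270873 in DMSO B, and was 16989529 to 22914785 with 2i. GC-rich and GC-poor transcripts were not recovered alike in every library. For transcripts with 65% GC, the curve of log2 CPM against GC stood higher with 2i than with DMSO by 1.18 in A and by 1.69 in C, and differed by −0.23 in B, and DMSO A lay farthest from the mean of the 12 libraries, at −2.0. For transcripts with 35% GC the difference between 2i and DMSO was −0.81 in A, −0.53 in B and −0.40 in C. GC differences thus moved with 2i in A and C at both ends, and in every letter for GC-poor transcripts. The number of calls in each list after a correction for GC content is given where it differs, with the members that lost their call. Fewer cells of a kind and less RNA per cell cannot be told apart in these bulk samples.

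The stretch of 250 bases before the annotated start of transcription is shown for genes at both ends of the response, taken from RefSeq on the GRCm38.p6 build, which is not the mm9 build of the gene positions given later. The capitals mark CTTTGAT, a core of the TCF/LEF motif, searched on both strands. Sp5 (chr2:70474673-70474922, plus strand), a Wnt-induced transcription factor, held it 104 bases before the start. One of the starts of Tnfrsf19 (chr14:61037988-61038237, minus strand), a receptor gene induced by β-catenin, held it on the opposite strand. The printed windows of Axin2 (chr11:108920099-108920348, plus strand) and of Dusp6 (chr10:99262981-99263230, plus strand) did not hold these letters.
Sp5: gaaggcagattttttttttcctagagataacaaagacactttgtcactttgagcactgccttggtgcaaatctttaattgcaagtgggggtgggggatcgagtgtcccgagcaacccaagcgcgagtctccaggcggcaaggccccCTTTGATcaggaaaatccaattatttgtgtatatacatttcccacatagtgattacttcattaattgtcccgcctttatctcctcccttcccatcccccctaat
Tnfrsf19: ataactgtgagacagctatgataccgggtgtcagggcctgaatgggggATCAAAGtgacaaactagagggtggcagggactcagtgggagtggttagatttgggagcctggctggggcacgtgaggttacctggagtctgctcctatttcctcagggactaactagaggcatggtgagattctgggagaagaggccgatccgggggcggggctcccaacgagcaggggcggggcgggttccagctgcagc
Axin2: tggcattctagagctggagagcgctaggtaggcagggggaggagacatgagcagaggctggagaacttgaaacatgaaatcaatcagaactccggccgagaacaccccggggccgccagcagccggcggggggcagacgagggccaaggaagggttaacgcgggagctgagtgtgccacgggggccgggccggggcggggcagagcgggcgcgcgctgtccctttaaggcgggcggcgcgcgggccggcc
Dusp6: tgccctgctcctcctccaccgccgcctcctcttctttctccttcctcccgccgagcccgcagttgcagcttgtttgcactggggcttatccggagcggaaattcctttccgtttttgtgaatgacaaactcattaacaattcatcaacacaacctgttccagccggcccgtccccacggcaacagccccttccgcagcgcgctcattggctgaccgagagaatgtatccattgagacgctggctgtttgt
Sp5 and Tnfrsf19 were the exceptions among the Wnt targets that rose. Of 13 windows found for 7 of these 8 genes, 2 held CTTTGAT, and the other start of Tnfrsf19, the 4 windows of Lef1 and the window of Nkd1 did not. Over all 32851 RefSeq windows of this length 3.21% held it. The share was 2.9% of 656 windows of genes that rose with 2i and 2.71% of 997 windows of genes that fell, against 2.23% of 12229 windows of the tested genes. Windows were found for 485 of the 686 genes that rose and 767 of the 1096 that fell. The ETS motif CCGGAAG was in 9.91% and 6.92% of these windows, against 12.4% for the tested genes and 6.91% overall.

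With 2i, 686 genes rose (5.12% of 13400 tested) and 1096 fell (8.18%) at an adjusted p under 0.05 in edgeR's quasi-likelihood test with the replicate letter as a block. Together they were 13.3% of the tested genes. All but 1 of the rises, 685, and each of the 1096 falls had that direction in A, B and C alike. Over all 13400 tested genes 3292 were higher and 3623 lower with 2i in each letter. Over all tested genes the TPM of the groups did not overlap for 5.19% higher and 14.7% lower with 2i. The change exceeded 1 on the log2 scale for 397 of the rises and 628 of the falls, and 2 for 138 and 168. The median change over all tested genes was −0.0044. Genes that rose had a median of 5.79 TPM (an abundance corrected for transcript length, relative to the whole library) with DMSO, those that fell 16.7 TPM, and all tested genes 20.4 TPM. The median GC content was 52.3% for genes that rose, 48.1% for those that fell and 50.6% for all tested genes. Without the letter in the model 213 rose (1.59%) and 379 fell (2.83%, together 4.42%), and all of these were among the genes called with it. After the GC correction with the block, 1457 rose (11.0%) and 1901 fell (14.3%, together 25.2%), including 602 and 1049 of the first lists. Without replicate C only 22 rose (0.168%) and 40 fell (0.306%, together 0.474%), and without replicate A 245 and 498. Without replicate B 646 rose and 885 fell. On log2(TPM + 1) with limma the split was 400 to 1693, with the median of all genes at −0.126. The counts of list members under another fit, given below, are to be read beside these totals over all genes.

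Genes that ERK signalling induces as its own brakes were lower with 2i. Of the 17 tested members of the list of ERK feedback and ETS genes, 10 fell (58.8%) and 1 rose (5.88%), beside 8.18% and 5.12% of all tested genes. Their median log2 fold change was −0.93 beside −0.0044 for all tested genes. Dusp6 encodes the phosphatase that inactivates ERK itself (mm9 chromosome 10, 98725865 to 98730122). Its levels were 72.5, 58.1 and 56.9 TPM in DMSO A, B and C, and 7.14, 6.68 and 6.85 TPM with 2i. Every 2i library lay far below every DMSO library, and the spread between letters was small, with means of 62.5 ± 8.65 and 6.89 ± 0.23 TPM (SD, n = 3). Dusp6 fell by 2.99 on the log2 scale (standard error 0.17, edgeR, adjusted p = 3.51e-05), or 7.95-fold.

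The other feedback genes fell less. Dusp4, a nuclear phosphatase of the same family, went from 27.8, 37.5 and 31.1 TPM to 8.69, 8.53 and 10.7 TPM, a log2 change of −1.59 ± 0.17 (SE, edgeR, adjusted p = 5.7e-04). Spry4, a Sprouty inhibitor of receptor tyrosine kinase signalling, stood at 56.7, 56.5 and 60.3 TPM with DMSO and at 26.3, 19.0 and 20.6 TPM with 2i. For Spred1, a relative of the Sprouty genes that holds back RAS, the values were 158, 84.2 and 68.7 TPM against 47.0, 28.6 and 21.2 TPM. The groups did not overlap in any of these genes, and the fitted changes were −1.23 ± 0.12 for Spry4 (SE, edgeR, adjusted p = 4.0e-04) and −1.49 ± 0.19 for Spred1 (adjusted p = 0.00144). The other members that fell were Spry1 (−1.66), Phlda1 (−0.98), Spry2 (−0.51) and Ccnd1 (−0.57), the cyclin through which ERK promotes entry into the cell cycle. Epha4, an ephrin receptor, rose by 1.41.

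The ETS factors of the PEA3 group, which carry the FGF and ERK signal to their targets, differed in size of response. Etv1 was at 58.6, 42.2 and 31.1 TPM with DMSO and 15.1, 10.6 and 7.08 TPM with 2i, a log2 change of −1.85 ± 0.16 (SE, edgeR, adjusted p = 1.7e-04). Etv4 was at 21.4, 69.1 and 56.3 TPM and then at 14.2, 17.7 and 20.4 TPM, a change of −1.19 ± 0.30 (edgeR, adjusted p = 0.0312). In both genes, all 2i libraries were below all DMSO libraries, but for Etv4 DMSO A was close to the 2i range. Etv5, the most abundant, had 296, 317 and 328 TPM against 226, 190 and 164 TPM, and its change of −0.53 ± 0.16 did not pass (edgeR, adjusted p = 0.0597, and 0.00621 with the GC correction). Dusp5 overlapped between groups at 0.18 ± 0.58 (edgeR, adjusted p = 0.843).

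Across this list, 13 of the 17 members were lower and 1 higher in all 3 letters, beside 3623 lower and 3292 higher of the 13400 tested genes. Without the letter in the model 5 fell and 1 rose, and Spred1 (edgeR, adjusted p = 0.0969) and Etv4 (0.158) no longer passed. Without replicate A 7 fell, without B 6 and without C 1, which was Dusp6. With the GC correction 12 members fell, with Etv5, Spred2 and Epha2 added and Spry2 lost (edgeR, adjusted p = 0.149).

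**Figure D1:**
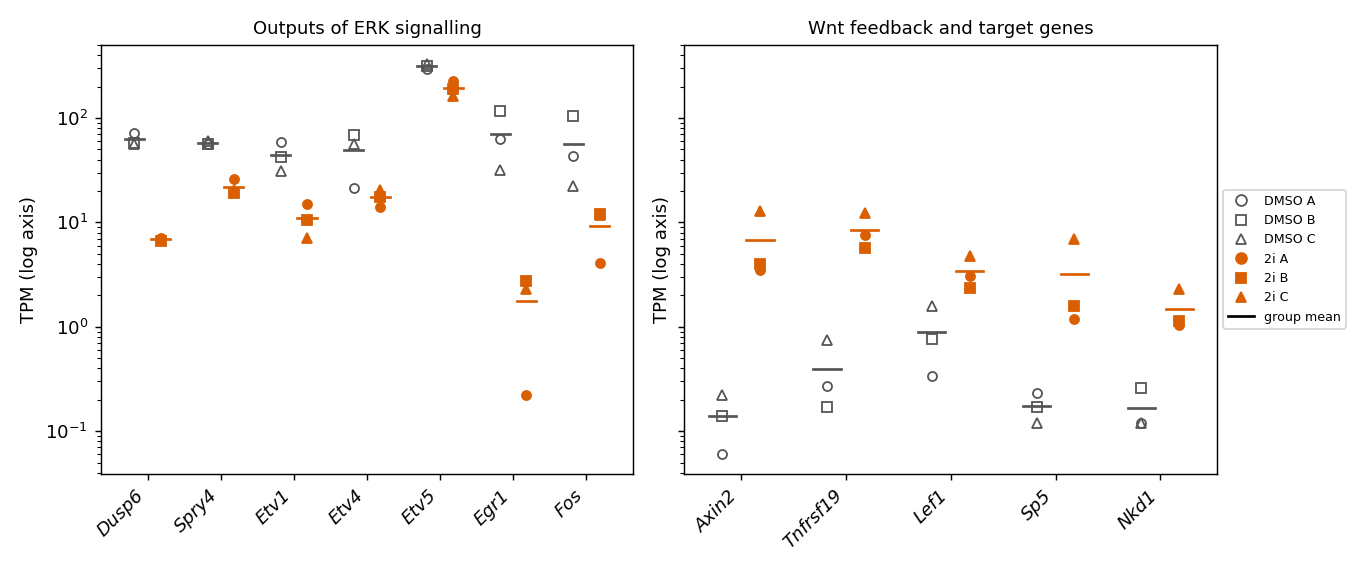
TPM on a log axis in each of the 3 DMSO (open) and 3 2i (filled) libraries, with horizontal bars at the arithmetic group means, for genes induced by ERK signalling (left) and by Wnt signalling (right). The 2i libraries lie below DMSO for Dusp6 (6.89 against 62.5 TPM on average) and above DMSO for Axin2 (6.76 against 0.14 TPM), and Sp5 and Axin2 are highest in 2i C.

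Immediate early genes did not move together. Of 18 tested, 2 fell (11.1%) and 1 rose (5.56%), beside 8.18% and 5.12% of all tested genes, and their median change was 0.08. After the GC correction 5 fell, with Fos, Nr4a1 and Myc added, and 1 rose. Egr1, a zinc finger factor induced within minutes of ERK activation, was at 63.7, 116 and 31.9 TPM with DMSO and at 0.22, 2.72 and 2.32 TPM with 2i. The 2i libraries were all lower, but the letters differed widely, and Egr1 fell by 5.63 on the log2 scale with a standard error of 1.33 (edgeR, adjusted p = 0.0228, and 0.0703 without the letter in the model). Egr1 also lost its call without replicate B or C. Fos, the AP-1 subunit, went from 43.5, 105 and 22.2 TPM to 4.06, 12.1 and 11.8 TPM. Its groups did not overlap, and the change of −2.72 ± 0.84 did not pass (edgeR, adjusted p = 0.0613, and 0.0351 with the GC correction). Maff fell by 1.22 (edgeR, adjusted p = 0.00697) and Atf3, a stress-induced factor, rose by 1.54 from 0.5 to 1.41 TPM with DMSO to 1.76 to 3.19 TPM with 2i (edgeR, adjusted p = 0.00223). Junb showed no common direction, with 4.31, 51.8 and 9.94 TPM against 3.49, 17.2 and 85.8 TPM, and Egr2, Egr3, Egr4 and Fosl1 had too few counts to test.

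The kinases and adaptors of the cascade itself were not called. None of the 19 tested genes from Hras1 to Rps6ka3 passed the edgeR test, and their median change was 0.14. In all letters 5 were higher and 3 lower, beside 3292 and 3623 of the 13400 tested genes. After the GC correction 1 fell, and without replicate B also 1.

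Upstream of the cascade, the EGF receptor and several of its ligands were lower. Egfr was at 68.3, 75.8 and 33.8 TPM with DMSO and 25.6, 18.3 and 12.1 TPM with 2i, so that the groups did not overlap. Its log2 change was −1.47 ± 0.16 (SE, edgeR, adjusted p = 5.7e-04, and 0.078 without the letter in the model). Nrg1, which encodes a ligand of the related ERBB3 and ERBB4 receptors, stood at 1.81, 3.29 and 3.68 TPM and then at 0.32, 0.11 and 0.20 TPM, a change of −3.56 ± 0.42 (edgeR, adjusted p = 8.8e-04). The EGFR ligands Areg (−1.14), Hbegf (−1.15) and Ereg (−1.31) also fell. In all, 5 of 11 tested members fell (45.5%) and 0 rose, beside 8.18% and 5.12% of all tested genes, with a median of −1.14. Erbb2, Erbb3, Egf, Tgfa, Epgn and Btc did not pass. Without the letter 1 member fell (Nrg1), without replicate A 3, without B 2 and without C 0, and after the GC correction 6 fell, with Erbb2 added.

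Direct targets of Wnt signalling were higher with 2i, most of them from very low levels. Of the 14 tested members of the Wnt feedback and target list, 8 rose (57.1%) and 1 fell (7.14%), beside 5.12% and 8.18% of all tested genes. Their median log2 change was 1.92. Axin2, the scaffold that feeds back on β-catenin, was at 0.06, 0.14 and 0.22 TPM with DMSO and 3.50, 3.97 and 12.8 TPM with 2i. It was the largest rise among genes with a mean of at least 5 TPM in the higher group, at 5.56 ± 0.36 on the log2 scale (SE, edgeR, adjusted p = 5.28e-05), or 47.1-fold. It rested on 2 to 13 counts with DMSO and 156 to 536 with 2i. Tnfrsf19 (mm9 chromosome 14, 61582671 to 61665692), whose window is printed above, rose from 0.27, 0.17 and 0.74 TPM to 7.57, 5.64 and 12.2 TPM, by 4.77 ± 0.28 (edgeR, adjusted p = 3.51e-05). Both were higher in every 2i library than in any DMSO library and kept their call without replicate C (edgeR, adjusted p = 0.0278 and 0.0251).

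Sp5, also shown above, had 0.23, 0.17 and 0.12 TPM with DMSO and 1.2, 1.57 and 6.93 TPM with 2i, a log2 change of 3.92 ± 0.56 (SE, edgeR, adjusted p = 0.00225). Nkd1, an inhibitor of Dishevelled, was at 0.12, 0.26 and 0.12 TPM and then at 1.05, 1.13 and 2.31 TPM, a change of 3.19 ± 0.40 (edgeR, adjusted p = 0.00124). Lef1, a partner of β-catenin on DNA, had 0.34, 0.77 and 1.57 TPM against 3.09, 2.38 and 4.72 TPM, a change of 2.18 ± 0.29 (edgeR, adjusted p = 0.00173). The groups did not overlap in any of the 3 genes, and 2i C was the highest library in each. Lef1 did not pass without the letter in the model (edgeR, adjusted p = 0.0719), and none of the 3 passed without replicate C.

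The remaining rises on this list were Notum (2.04), a secreted enzyme that inactivates Wnt ligands, Rnf43 (1.93), a ubiquitin ligase that removes Frizzled receptors, and Tcf7 (1.07), a β-catenin partner. Notum overlapped between groups, with 3.41, 34.3 and 32.9 TPM against 31.4, 54.6 and 151 TPM, although it was higher with 2i within each letter. Wif1, a secreted Wnt antagonist, fell from 3.07, 2.86 and 3.23 TPM to 0.69, 0.64 and 1.19 TPM, by 1.69 ± 0.28 (edgeR, adjusted p = 0.0047). Znrf3, Dkk1, Lgr5, Ascl2 and Apcdd1 did not pass. Without the letter in the model 4 members rose, without replicate A 6, without B 7 and without C 2. Correcting for GC content, 8 rose and 2 fell, with Apcdd1 added.

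**Figure D2:**
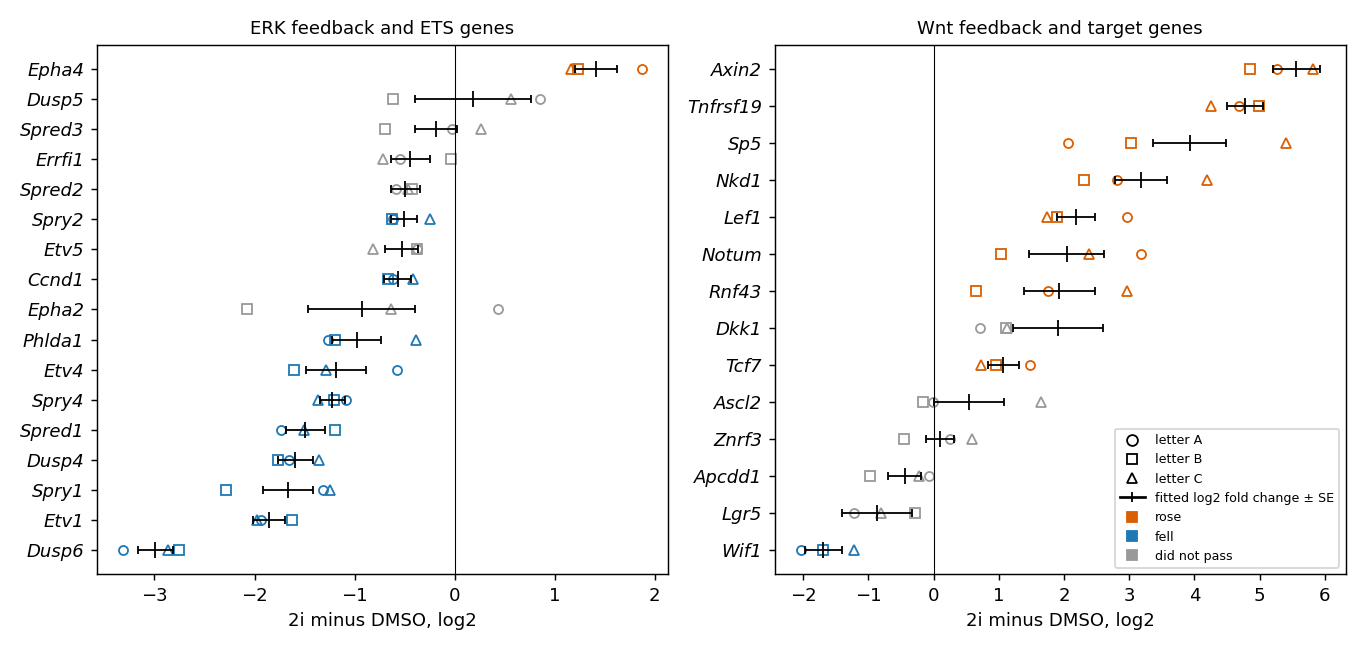
Difference in log2 CPM between the 2i and DMSO libraries of the same letter (open symbols) and the fitted log2 fold change with its standard error (black) for the tested ERK feedback and ETS genes (left, 17) and Wnt feedback and target genes (right, 14), coloured by the edgeR call. In the left panel 10 genes fell and Epha4 rose, and in the right panel 8 rose and Wif1 fell, with Axin2 and Tnfrsf19 above 4 in every letter.

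Of 14 tested components of the β-catenin pathway 1 rose (7.14%) and 2 fell (14.3%), beside 5.12% and 8.18% of all tested genes. Ctnnb1, which encodes β-catenin, was at 766, 674 and 758 TPM and 713, 608 and 519 TPM (−0.089 ± 0.17, edgeR, adjusted p = 0.737), and Gsk3b at 68.8, 42.0 and 31.4 TPM and 51.7, 32.7 and 24.1 TPM (−0.20 ± 0.14, adjusted p = 0.35). The TCF factors went in different directions. Tcf7l1, which represses pluripotency genes in the absence of Wnt, rose by 1.34 ± 0.38 (edgeR, adjusted p = 0.0465), from 6.06, 19.2 and 19.3 TPM to 22.9, 26.6 and 42.8 TPM. Tcf7l2 fell by 0.91 ± 0.18 (edgeR, adjusted p = 0.0104) and the Wnt co-receptor Lrp6 by 0.64 ± 0.15 (adjusted p = 0.0219). None of the 3 passed without the letter in the model or without replicate C.

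Genes of the primitive streak and the posterior embryo, where Wnt signalling is active, were mostly silent. Only 6 of 15 had enough counts to test. Of these 3 rose (50.0%) and 2 fell (33.3%), beside 5.12% and 8.18% of all tested genes. Nkx1-2, a homeobox gene of the posterior embryo, had 0 to 1 counts with DMSO and 36 to 118 with 2i (edgeR, adjusted p = 1.0e-04). Its levels with 2i were 2.48, 1.52 and 6.41 TPM. Cdx1, a posterior homeobox gene induced by Wnt, went from 0 to 1 counts to 4 to 28 counts (edgeR, adjusted p = 0.00139), and Wnt3 rose by 1.5 ± 0.34 (adjusted p = 0.0184). Eomes, a T-box factor of the streak, fell from 2.26, 2.18 and 2.68 TPM to 1.06, 1.07 and 0.97 TPM (−1.01 ± 0.19, edgeR, adjusted p = 0.00859), and Evx1 fell by 1.44. T, the T-box gene that marks the streak and is a Wnt target in embryonic stem cells, had 0 counts in each DMSO library and 0 to 1 with 2i. Without the letter Nkx1-2 and Eomes kept their call, and without replicate C 0 members did.

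Naive pluripotency genes split. Of 18 tested, 3 rose (16.7%) and 5 fell (27.8%), beside 5.12% and 8.18% of all tested genes, with a median of −0.45. Tcfcp2l1, a factor that sustains naive self-renewal downstream of both LIF and 2i, was at 10.2, 7.84 and 8.89 TPM with DMSO and 49.0, 31.8 and 25.9 TPM with 2i. The groups were far apart, and the rise of 2.12 ± 0.19 on the log2 scale (SE, edgeR, adjusted p = 2.0e-04, 4.33-fold) also passed without the letter (0.00267) and without replicate C (0.0279). Klf2, a Krüppel-like factor whose protein ERK destabilizes, had 5.98, 6.45 and 7.35 TPM against 10.7, 14.6 and 31.8 TPM, a change of 1.54 ± 0.28 (edgeR, adjusted p = 0.00697). Its transcript has a GC content of 61.6%, and it did not pass after the GC correction (edgeR, adjusted p = 0.204) or without the letter (0.137). Tbx3, a T-box factor of the naive network, rose by 3.02 from 5 to 6 counts to 21 to 78 counts (edgeR, adjusted p = 8.9e-04), and did not pass without the letter (0.0632), without replicate C (0.0923) or with limma.

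The falls in this list were Tdgf1 (−1.92), Fgf4 (−1.16), Zfp42 (−0.93), Dppa5a (−0.95) and Dppa2 (−1.35). Tdgf1, a co-receptor for Nodal, went from 111, 91.6 and 165 TPM to 33.4, 25.5 and 25.4 TPM (edgeR, adjusted p = 8.5e-04). Fgf4, the ligand that drives ERK in pluripotent cells, went from 54.5, 61.7 and 46.9 TPM to 25.8, 20.9 and 17.6 TPM (edgeR, adjusted p = 0.00103). Neither overlapped between groups, and both also passed without the letter in the model. After the GC correction Dppa2 did not pass (edgeR, adjusted p = 0.0579) and Klf5 did (0.0377), so that 2 members rose and 5 fell. Nanog, the homeobox gene behind the silent reporter, was at 2.93, 3.16 and 7.14 TPM and 6.92, 6.37 and 4.96 TPM, higher with 2i in A and B and lower in C (0.69 ± 0.33, edgeR, adjusted p = 0.189). Esrrb stayed near the detection limit at 8 to 14 counts with DMSO and 8 to 12 with 2i (edgeR, adjusted p = 0.823). Klf4 overlapped widely, with 34.1, 530 and 142 TPM against 84.5, 163 and 311 TPM (edgeR, adjusted p = 0.845), and the sign of its difference and that of Esrrb changed between fits.

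Genes of the primed epiblast, the state after implantation, were lower or not called. Of 10 tested, 4 fell (40.0%) and 0 rose, beside 8.18% and 5.12% of all tested genes, with a median of −0.70. Otx2, a homeobox factor that drives exit from the naive state, was at 3.66, 4.58 and 8.46 TPM and then at 1.07, 1.26 and 1.98 TPM (−1.72 ± 0.20, edgeR, adjusted p = 9.0e-04). Zic2 went from 61.7, 49.8 and 29.8 TPM to 23.4, 18.6 and 18.1 TPM (−1.02 ± 0.20, edgeR, adjusted p = 0.0116) and Pou3f1 fell by 1.78. Fgf5, the classical marker of the primed state, had 6 to 9 counts with DMSO and 0 in each 2i library, at least 2.27-fold lower at a floor of 3 counts per library, and the median of the list was the same with that bound. Only Otx2 passed without the letter in the model, and 0 members without replicate C, while 5 fell after the GC correction, with Dnmt3a added. Nodal, Lefty1, Lefty2, Dnmt3a and Dnmt3b did not pass.

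**Figure D3:**
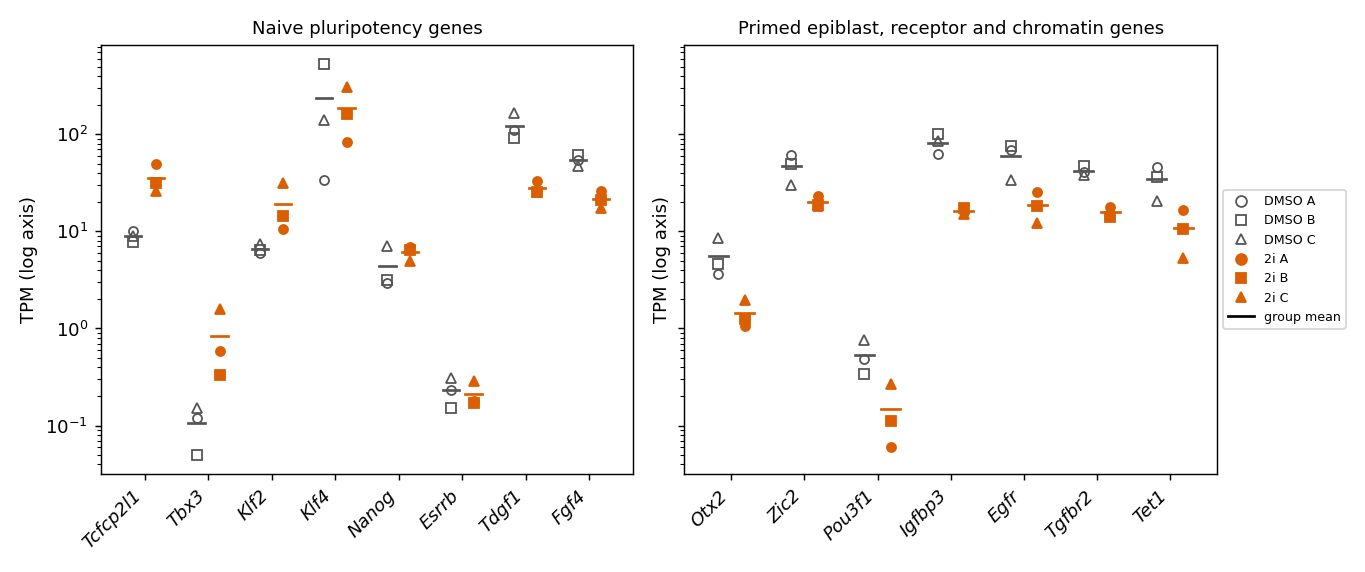
TPM on a log axis in each DMSO (open) and 2i (filled) library with arithmetic group means for 8 naive pluripotency genes (left) and for primed epiblast, receptor and chromatin genes (right). Tcfcp2l1 is higher in every 2i library (35.6 against 8.98 TPM on average), Klf4, Nanog and Esrrb overlap, and the genes of the right panel are lower in every 2i library.

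Receptors and ligands of other growth factor pathways were among the falls. In the LIF–STAT3 list 4 of 8 tested genes fell (50.0%) and 0 rose, beside 8.18% and 5.12% of all tested genes, with a median of −0.43. Osmr, the oncostatin M receptor, went from 65.2, 76.1 and 34.5 TPM to 24.3, 18.9 and 12.8 TPM (−1.44 ± 0.18, edgeR, adjusted p = 0.0013) and Pim1, a kinase gene induced by STAT3, fell by 1.04. The receptor subunits Il6st (−0.52) and Lifr (−0.62) changed less and lost their call without the letter (edgeR, adjusted p = 0.37 and 0.501). Stat3 and Socs3 did not pass. Without replicate C 0 members fell, beside 0.306% of all genes tested in that fit. After the GC correction 7 fell, with Jak1, Socs3 and Pim3 added, beside 14.3% of all genes.

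In the TGF-β list 3 of 11 fell (27.3%) and 1 rose (9.09%), beside 8.18% and 5.12% of all tested genes. Tgfbr2, the type II receptor, was at 41.5, 47.4 and 37.8 TPM and 17.8, 14.2 and 15.3 TPM, with no overlap and a change of −1.23 ± 0.12 (edgeR, adjusted p = 3.5e-04). Ltbp1, which stores latent TGF-β in the matrix, fell by 1.77 (edgeR, adjusted p = 0.0004455) and Tgfb2 fell by 1.24 (adjusted p = 0.00718). Tgfbr2 and Ltbp1 passed without the letter and 0 members without replicate C, and after the GC correction 5 fell, with Tgfb1 and Ctgf added. Of 10 BMP and Id genes 2 fell, Id4 by 1.69 (edgeR, adjusted p = 0.00481) and Id2 by 0.47 (adjusted p = 0.0376, and 0.427 with the GC correction).

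In the IGF axis 4 of 10 fell and 2 rose. Igfbp3, which binds IGFs outside the cell, went from 62.3, 100 and 84.6 TPM to 15.9, 17.4 and 15.1 TPM (−2.14 ± 0.16, edgeR, adjusted p = 9.9e-05), and passed without the letter (5.7e-04) and without replicate C (0.0344). The receptor genes Igf1r (−1.55, edgeR, adjusted p = 0.00124) and Insr (−0.90, adjusted p = 0.00889) fell, as did Igfbp7 (−1.39). Igf2 rose by 1.05 (edgeR, adjusted p = 0.0121) and Igfbp4 by 1.31 (adjusted p = 0.0169), and neither passed without the letter in the model. Of the falls, Insr (edgeR, adjusted p = 0.251) and Igfbp7 (0.201) also lost their call without it, and only Igfbp3 passed without replicate C.

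Among 13 epithelial genes 3 fell (23.1%), namely Krt19, Ocln and Tjp1, and 1 rose (7.69%), beside 8.18% and 5.12% of all tested genes. The rise was that of Dsp, the desmosomal plaque gene, by 0.99 (edgeR, adjusted p = 0.00178). Krt19 went from 23.8, 142 and 129 TPM to 5.42, 12.7 and 16.6 TPM (−2.74 ± 0.58, edgeR, adjusted p = 0.0145), with DMSO A near the 2i range. After the GC correction Ocln did not pass (edgeR, adjusted p = 0.0612), and 3 members rose and 4 fell. Of 15 mesenchymal and matrix genes 1 rose and 1 fell (6.67% each), near the shares of all tested genes. Zeb2 rose from 2.01, 1.19 and 0.95 TPM to 7.06, 4.09 and 3.02 TPM (1.94 ± 0.19, edgeR, adjusted p = 3.2e-04). Its relative Zeb1 fell by 0.55 (edgeR, adjusted p = 0.0466), and after the GC correction 3 members rose and 3 fell. Without the letter only Dsp and Zeb2 of these passed, and without replicate C none.

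Of 12 G1 cyclins and CDK inhibitors 1 fell (8.33%) and 1 rose (8.33%), beside 8.18% and 5.12% of all tested genes. Cdk6 fell by 0.88 (edgeR, adjusted p = 0.00372). Cdkn1a, which encodes p21, rose by 0.64 (edgeR, adjusted p = 0.0191, and 0.412 with the GC correction, when 1 other member rose and 2 fell). Of 19 replication and mitosis genes only Mki67 fell (5.26%), by 0.70 (edgeR, adjusted p = 0.0257), while 4 fell without replicate B. Of 11 chromatin modifiers 3 fell (27.3%) and 0 rose. The falls were the 5-methylcytosine dioxygenases Tet1 (−1.54, edgeR, adjusted p = 6.6e-04) and Tet2 (−0.86, adjusted p = 0.00323) and the H3K9 demethylase Kdm3b (−0.52, adjusted p = 0.0166). Tet1 was at 46.6, 36.0 and 20.6 TPM with DMSO and 16.8, 10.6 and 5.30 TPM with 2i, without overlap. Once GC content was corrected for, 4 chromatin modifiers fell, with Tet3 added. Each of these calls was lost without the letter in the model and without replicate C.

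Of 12 cholesterol synthesis genes 3 fell (25.0%) and 0 rose, beside 8.18% and 5.12% of all tested genes. Among the falls were Insig1 (−0.79), which retains the sterol sensor in the endoplasmic reticulum, and Cyp51 (−0.64), an enzyme of the pathway. After the GC correction 5 fell. Of 11 p53 and stress genes 2 rose (18.2%), Sesn2 (1.2) and Ddit4 (0.74), and 0 fell. Ddit4 did not pass after the GC correction (edgeR, adjusted p = 0.716), when Ccng1 did. Among 10 housekeeping genes Gapdh rose by 1.37 ± 0.38 (edgeR, adjusted p = 0.0446), with 1396 TPM in DMSO A beside 4157 and 5884 TPM in DMSO B and C and 6585 to 8363 TPM with 2i, and 2 members rose and 1 fell after the GC correction. None of the called members of these 3 lists passed without the letter in the model.

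**Figure D4:**
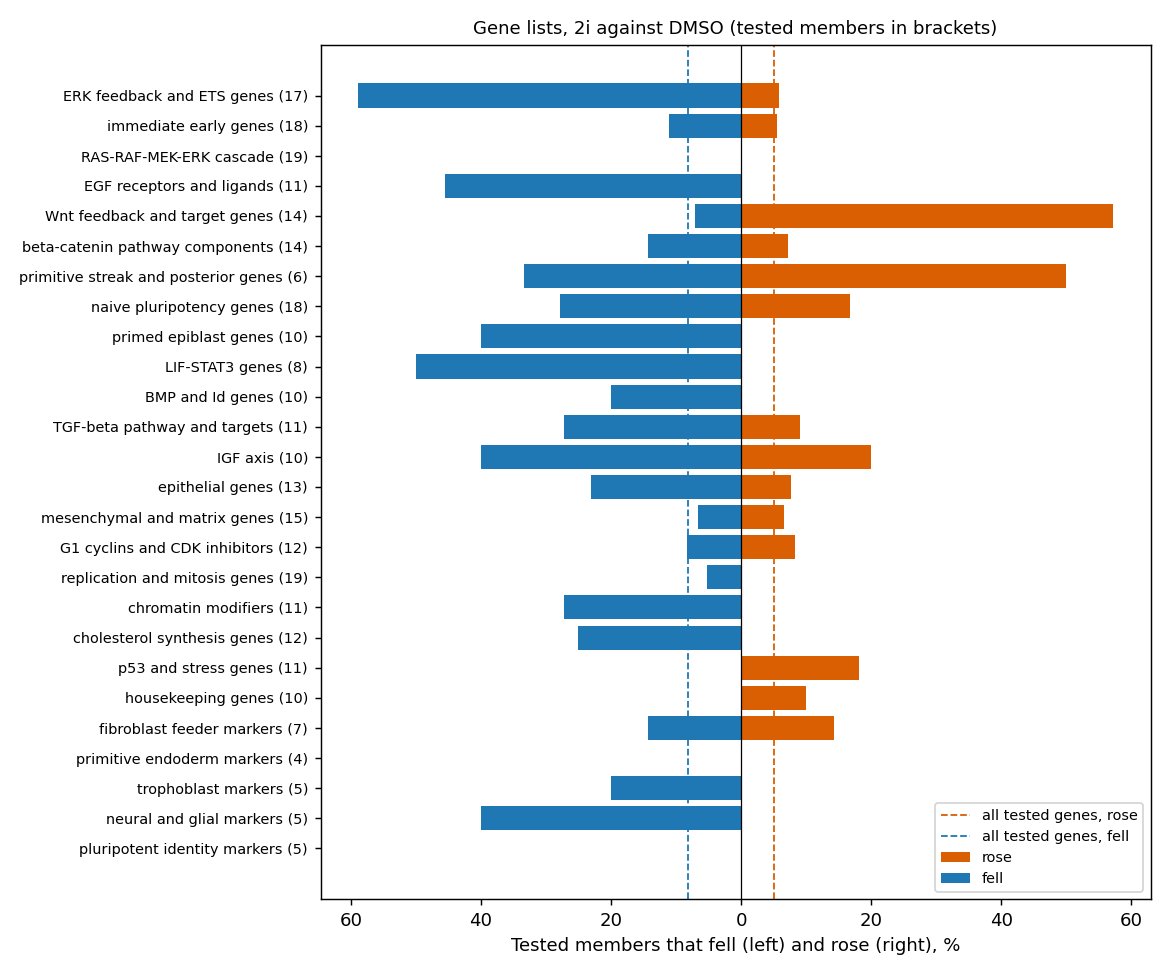
Share of the tested members of each gene list that fell (left of 0, %) and rose (right of 0, %) with 2i, with the number tested in brackets and dashed lines at the shares over all tested genes (8.18% and 5.12%). The largest shares are the falls among ERK feedback and ETS genes (58.8%) and the rises among Wnt feedback and target genes (57.1%). The lists were chosen with earlier results of these data known, so their order by share is only descriptive.

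The markers of pluripotent identity were not uniformly expressed. Fut4, which encodes a fucosyltransferase that can make the SSEA1 epitope, was at no more than 0.1 TPM in any of the 6 libraries and could not be tested. The paper reports SSEA1 on the surface of pre-iPSC lines, so the Fut4 level does not show whether the epitope was present. Nanog was at 2.93 to 7.14 TPM. Pou5f1, whose reads include any introduced copy, was at 1865 to 9673 TPM with DMSO and 2946 to 3669 TPM with 2i, and Cdh1 at 31.8 to 50.0 and 46.3 to 57.2 TPM, and none of the 5 tested markers was called, while Cdh1 rose after the GC correction (edgeR, adjusted p = 0.0368). The 10 fibroblast markers summed to 3.61 to 11.4 TPM with DMSO and 4.47 to 4.84 TPM with 2i, with Lum at 0 in all 6 libraries and 7 markers under 1 TPM in each. Among them Thy1 fell by 1.93 (edgeR, adjusted p = 0.0351) and Col3a1 rose by 1.62 (adjusted p = 0.0355), the latter at no more than 0.41 TPM. The primitive endoderm markers summed to 6.77 to 30.9 and 10.8 to 33.4 TPM, most of it Col4a1, with Ttr at 0, Gata4, Gata6, Sox17, Sox7 and Foxa2 under 1 TPM and 0 of 4 tested called. The 7 trophoblast markers summed to 3.58 to 5.67 and 2.11 to 6.36 TPM, with Prl3d1 at 0 and Eomes the only call. The neural and glial markers summed to 77.5 to 98.2 and 59.4 to 76.5 TPM, mostly Nes and Sox1. Nes fell by 0.50 (edgeR, adjusted p = 0.0416) and Olig2 by 1.05 (adjusted p = 0.0255), while Sox1 and Pax6 did not pass, and Tubb3 rose after the GC correction.

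Many of the largest changes lay outside both pathway lists. The rises among genes with at least 5 TPM in the higher group were, after Axin2, Lyg1 (5.56), Tnfrsf19 (4.77), Wnt8a (3.93), Slc30a2 (3.63), Gm9104 (3.62), Fabp3 (3.52), Cxx1c (3.52), Pde3a (3.42) and 1700084C01Rik (3.37). Wnt8a, a Wnt ligand of the early embryo, was at 1.47, 4.80 and 4.58 TPM with DMSO and 36.0, 42.0 and 61.6 TPM with 2i, 15.3-fold higher (edgeR, adjusted p = 8.96e-05). Lyg1, a lysozyme-like gene, was at 0.16, 0.12 and 0.47 TPM and 7.58, 8.71 and 11.1 TPM (edgeR, adjusted p = 5.28e-05), though on 60 to 83 counts with 2i. Fabp3, a fatty acid binding protein, had 1.22, 1.80 and 6.62 TPM against 13.1, 18.9 and 61.5 TPM (edgeR, adjusted p = 4.6e-04). Each of these 10 genes was higher in every 2i library than in any DMSO library. Slc30a2 (edgeR, adjusted p = 0.084) and Fabp3 (0.082) did not pass without the letter.

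The largest falls were Gm14440 (−7.11), Tac2 (−6.59), Egr1 (−5.63), Lect1 (−5.48), Gm6813 (−4.90), Upk1b (−4.72), Krtdap (−4.59), St8sia2 (−4.45), Oit1 (−4.41) and Slc35d3 (−4.40). Tac2, which encodes the neuropeptide neurokinin B, was at 49.0, 90.5 and 52.1 TPM with DMSO and 0.45, 0.75 and 0.48 TPM with 2i, 96.5-fold lower (edgeR, adjusted p = 3.45e-06). Lect1, which encodes chondromodulin, was at 20.1, 38.2 and 25.7 TPM and 0.54, 0.62 and 0.44 TPM (edgeR, adjusted p = 3.51e-05). St8sia2, a polysialyltransferase, went from 8.28, 11.96 and 9.72 TPM to 0.51, 0.31 and 0.40 TPM (edgeR, adjusted p = 4.57e-05). In Tac2, Lect1, St8sia2 and Slc35d3 the call also held without the letter and without replicate C. Gm14440, Gm6813, Gm9104 and Cxx1c are predicted genes or members of families with near-identical copies, among which RSEM divides reads, so their values are uncertain. Gm14440 and Gm6813 lost their call without the letter (edgeR, adjusted p = 0.112 and 0.0579).

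The response was also read in libraries that the first comparison did not use, by setting AA+2i against AA. In that contrast 900 genes rose (6.72%) and 1092 fell (8.15%, together 14.9%). Of the 686 genes that rose with 2i, 676 (98.5%) had the same sign and 464 also passed, and of the 1096 that fell, 1055 (96.3%) had the same sign and 701 also passed, where 82.1% of all tested genes had the same sign in both contrasts. The 2 contrasts share no library, but they come from 1 fit with common letter terms. Differences in GC recovery also ran the same way in both. For transcripts with 65% GC the curve stood at −1.92 in AA A and 0.623 in AA+2i A, and at 0.844 in AA C and 1.85 in AA+2i C. In B it stood at 0.138 with AA and −0.224 with AA+2i. The libraries with 2i thus stood higher in A and C and lower in B in both contrasts. How far this feeds the shared signs was not tested. AA+2i B also went against its letter, as described below. The median change of the rises was 1.13 without and 1.09 with AA, and that of the falls −1.10 and −0.86.

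Dusp6 changed by −2.99 without AA and −3.15 with it, and its level was 75.2, 58.0 and 59.9 TPM with AA and 6.22, 6.19 and 6.63 TPM with AA+2i. Axin2 changed by 5.56 and 5.25, Tnfrsf19 by 4.77 and 5.76, Tcfcp2l1 by 2.12 and 1.92, and Tac2 by −6.59 and −7.15, and each passed in both (edgeR). Egr1 changed by −5.63 and −0.89 (edgeR, adjusted p = 0.624 with AA), Lef1 by 2.18 and 0.78 (0.0916) and Id4 by −1.69 and −0.13 (0.772). Gm14440 changed by −7.11 and 1.04 (edgeR, adjusted p = 0.705 with AA), Gm6813 by −4.90 and 1.56 (0.315) and Gm9104 by 3.62 and 0.084 (0.939). For none of these was the difference between the contrasts called. Apart from Egr1 and these Gm genes, the largest rises and falls listed above passed in both contrasts with the same sign. The ERK feedback list had 11 falls and 1 rise with AA, and the Wnt list 9 rises and 1 fall. The difference between the contrasts was called for 4 genes (0.0299% of the tested), with 639 at an unadjusted p under 0.05 in edgeR and 49 called by DESeq2.

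**Figure D5:**
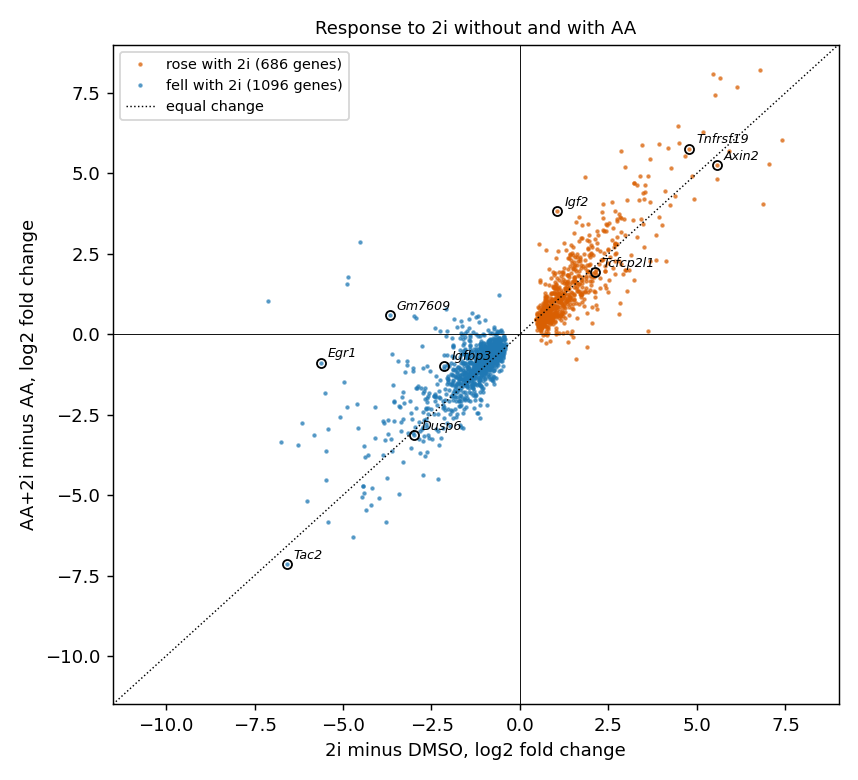
Log2 fold change of AA+2i against AA (vertical) plotted against that of 2i against DMSO (horizontal) for the 686 genes that rose and the 1096 that fell with 2i, with the dotted line at equal change and named genes circled. The points lie mainly near the dotted line, with 98.5% of the rises and 96.3% of the falls on the same side of 0 in both, and Gm7609 and Igf2 lie away from it.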

How the data were processed

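RNA was sequenced from pre-iPSCs after 48 h with DMSO, AA, 2i or AA+2i, in 3 biological replicates according to the methods (letters A, B and C) per condition. The p-values measure the spread left between these samples after the letter term, pooled over the 12 libraries with AA+2i B among them. The authors aligned reads to mm9 RefSeq genes with Bowtie and deposited 2 units per library, RSEM (version 1.2.4) expected counts, which are not normalized, and TPM scaled within each library. One malformed TPM cell of another condition was recomputed from its expected count and transcript length, scaled to the other TPM values of its library. After rounding, edgeR's quasi-likelihood test (version 4.0.16, R 4.3.3) was fitted to all 12 libraries with RLE factors and with condition and letter as terms (6 residual degrees of freedom), on the 13400 of 20325 genes that reached 10 counts in 3 or more libraries, with Benjamini-Hochberg adjusted p under 0.05. Standard errors are the size of the change divided by the square root of F, and therefore restate the test. The letters were treated as pairs because the rule that set this comparison named the letter as a block. Deviations from the group means correlated between 2i and DMSO libraries of the same letter (r = 0.787 in A, 0.177 in B and 0.513 in C, across genes). DMSO B and 2i C, of different letters, also correlated (0.564). AA+2i B correlated with DMSO A, AA A and 2i A (0.693, 0.769 and 0.76). With DMSO B, AA B and 2i B its values were −0.588, −0.543 and 0.067. The GC correction entered a loess curve (span 0.4) per library as an offset, for 13300 genes. Alternatives used limma 3.58.1 on log2(TPM + 1) and DESeq2 1.42.0, and the tests were tried on simulated data. Named genes were the 10 largest rises and 10 largest falls with at least 5 TPM in the higher group, up to 5 called members of each of 26 lists by adjusted p, and genes fixed as best known outputs or named by the study, and a member of a list named beyond these was chosen after its values were seen. The members, lists and rules were chosen with earlier results of these data known. Hmgcs1 and Tfap2c were not analysed here, and some members counted in the lists are not reported by name.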

Additional observations from a re-analysis of the deposited data

Results flagged for a closer look

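The difference between the response to 2i with and without AA passed the edgeR interaction test for 4 genes, of which 3 are described. Igf2, an imprinted growth factor, was at 5.82, 5.24 and 9.28 TPM with DMSO, 9.54, 7.29 and 24.5 TPM with 2i, 1.84, 1.77 and 4.0 TPM with AA and 23.1, 18.8 and 59.0 TPM with AA+2i, so that 2i raised it by 1.05 on the log2 scale without AA and by 3.82 with AA, a difference of 2.76 (edgeR, adjusted p = 0.0178). LOC100504710 was at 60.5, 112 and 94.6 TPM with DMSO, 104, 108 and 122 TPM with 2i, 31.8, 37.7 and 39.4 TPM with AA and 211, 201 and 253 TPM with AA+2i, a difference of 2.25 (edgeR, adjusted p = 0.0113). In both genes the AA+2i libraries were the highest and the AA libraries the lowest within each letter.

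Gm7609, a predicted gene, was highest with DMSO. It was at 7.93 to 11.98 TPM with DMSO and at 0.45 to 1.73 TPM in the other 9 libraries, a difference of 4.28 (edgeR, adjusted p = 0.00877). Without the letter in the model Gm7609 kept its call (edgeR, adjusted p = 0.00571) and Igf2 and LOC100504710 did not (1.0 and 0.143).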

How the results depend on the processing

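The genes that rose and fell with 2i numbered 686 and 1096 with the replicate block, and 213 and 379 with no replicate block, 400 and 1693 with limma, and 1457 and 1901 with the GC correction and the block. Leaving out a letter gave from 22 to 646 rises and from 40 to 885 falls, the lowest without replicate C in both. Only the 6 libraries with the block gave 662 falls, and without the block, an alternative added after the data were seen, 69 rises and 118 falls. Without the AA+2i libraries, also added since AA+2i B went against its letter (r = −0.588 with DMSO B), 1550 rose and 1644 fell. The genes called in the same direction with and without AA numbered 1165, and 410 with no replicate block, 2218 with the GC correction and block, and 54 to 1357 when a letter was left out. The interaction calls (4) became 2 with no replicate block, 49 with DESeq2, 27 with limma, 2 with 10 counts in every library, 24 with the GC correction and block, 0 with the GC correction and no replicate block, and 0 to 0 without a letter. The causes were not tested, apart from the fewer libraries or genes in a fit. No called gene that the text names by its rule changed sign in any alternative. Of 90 such genes, 38 kept their call with no replicate block, 84 of 89 with the GC correction and block, 66 of 88 with only the 6 libraries and the block, 90 with DESeq2 and 17 of 88 without replicate C. The differences of Klf4 and Esrrb, which were not called, reversed. Klf4 (0.22) was at −0.0098 with no replicate block, −0.11 with the GC correction and block, −0.23 with the GC correction and no replicate block, −0.0051 in the 6 libraries with no replicate block, and −0.31 to 1.32 when a letter was left out (−0.31 without replicate A and −0.26 without replicate C). Esrrb (0.14) was at −0.019 with limma, −0.13 and −0.18 with the GC correction with and without the block, and −0.098 to 0.32 when a letter was left out (−0.098 without replicate B). T and Esrrb had at most 14 counts in any library of 2i or DMSO, where a change is hard to detect.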

Other observations

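Gene families outside the lists were read by symbol after their values were seen, so they are given without a test of the family, and their counts stand beside 5.12% of all tested genes that rose and 8.18% that fell. Not every family read is described below. Of 35 protocadherins 1 rose and 0 fell, of 73 mitochondrial ribosomal protein genes 3 rose and 0 fell, and of 215 solute carriers 10 rose and 26 fell. Larger shares were also left out, with 3 of 5 NFAT factors and 4 of 11 claudins falling. Of 11 tested Wnt ligands 4 rose and 0 fell, or 36.4%, namely Wnt8a, Wnt5b, Wnt3 and Wnt6. Wnt5b was at 0.72, 2.01 and 1.32 TPM with DMSO and 2.64, 2.77 and 4.33 TPM with 2i (edgeR, adjusted p = 0.0114). Of 10 Frizzled receptors Fzd10 rose by 1.94 and Fzd5 and Fzd3 fell by 0.78 and 0.70. Of 10 laminin chains, which build basement membranes, 4 fell (40.0%) and 0 rose. Lama3 was at 5.40, 5.58 and 5.34 TPM with DMSO and 0.60, 0.43 and 0.39 TPM with 2i, 10.2-fold lower (edgeR, adjusted p = 3.51e-05). Lamb1 fell by 2.66 and Lama4 by 1.07, and 3 of the 4 passed without the letter in the model. Of 18 integrins, the receptors for laminins and other matrix proteins, 5 fell (27.8%) and 0 rose, among them Itga6 (−0.87) and Itgb1 (−0.73). Without the letter in the model 1 integrin fell, and without replicate C 0.

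Families known from the interferon response held falls and no rises. Of 7 guanylate-binding protein genes 4 fell (57.1%), of 11 genes of the 2-5A synthetase family 5 (45.5%), and of 6 Schlafen genes 3 (50.0%), against 8.18% of all tested genes, and 0 rose in any of the 3 families. Gbp4 was at 49.0, 64.2 and 63.0 TPM with DMSO and 6.66, 5.44 and 6.12 TPM with 2i, 8.47-fold lower (edgeR, adjusted p = 3.51e-05, and 6.34e-05 without the letter). Oas2 fell by 2.44 from 1.89, 4.27 and 2.63 TPM to 0.42, 0.45 and 0.50 TPM (edgeR, adjusted p = 0.00119). Members of these families are similar in sequence, and RSEM divides reads among them. Without the letter in the model 2, 3 and 0 of the members fell, and without replicate C 1, 0 and 0. After the GC correction 5, 7 and 3 fell, and 1 Schlafen gene rose.

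Of 13 kallikrein-related peptidase genes 6 fell (46.2%) and 0 rose. Without the letter in the model 3 of the family fell, and without replicate C 0. Klk1 was at 486, 1051 and 1103 TPM with DMSO and 170, 179 and 110 TPM with 2i (−2.25 ± 0.28, edgeR, adjusted p = 0.00108). Of 26 cytochrome P450 genes 10 fell (38.5%) and 2 rose (7.69%), and the 2 were Cyp1a1 and Cyp1b1, both known targets of the aryl hydrocarbon receptor. Without the letter in the model 6 of the family fell and 2 rose, and without replicate C 0 fell and 1 rose. Cyp1b1 was at 0.19, 0.13 and 0.19 TPM with DMSO and 3.75, 1.53 and 5.78 TPM with 2i, 22.4-fold higher (edgeR, adjusted p = 1.0e-04), and Cyp1a1 went from 0 to 3 counts to 26 to 109 counts. All 3 tested small proline-rich genes (Sprr2a1, Sprr2a2 and Sprr2b) rose, with Sprr2a1 at 0.86 to 2.67 and 7.10 to 32.3 TPM. Sprr2a1 and Sprr2a2 carried identical values in every library, so the 3 genes are not 3 separate measurements. Of 80 cytosolic ribosomal protein genes 10 rose (12.5%, against 5.12% of all tested genes) and 0 fell, with a median of 0.61, and 0 rose without the letter in the model.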
